A study of Mus musculus with 16 samples.

Results

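A set of 10 genes of the trophectoderm lineage and of the Hippo pathway was followed through the deposited histone modification maps of mouse late 2-cell embryos: Cdx2, Tead4, Gata3, Tfap2c, Eomes, Elf5, Yap1, Wwtr1, Lats1 and Lats2. They were chosen by name, with earlier results of these data known, and the rule itself uses no measured value. All 10 were matched by symbol in the RefSeq gene table of GRCm38.p6 (mm10), where they are 10 of 21887 protein-coding genes on chromosomes 1 to 19, X and Y. The embryos were collected 36 h after fertilization and had been injected as zygotes either with H2O (called water below) or with Hdac1 mutant mRNA (called mutant below). The change carried by that mRNA, the mouse strain and the number of embryos behind each library are not given in the sources used here. H3K27ac and H3K4me3 were mapped by ULI-NChIP-seq, an immunoprecipitation for very few cells in which unfixed chromatin is cut with micrococcal nuclease, from 2 immunoprecipitation and 2 input libraries per mark and condition (16 libraries). The data used were the 4 peak lists of the authors, 1 per mark and condition, each of which stands for both of its immunoprecipitation libraries.

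The trophectoderm is the outer epithelium of the blastocyst and gives rise to the placenta. In the Hippo pathway the kinases Lats1 and Lats2 phosphorylate the coactivators Yap1 and Wwtr1 (also called TAZ) and so keep them out of the nucleus. Unphosphorylated Yap1 and Wwtr1 bind the DNA-binding factor Tead4, which drives Cdx2 and Gata3 in outer cells, while Tfap2c, Eomes and Elf5 are further transcription factors of trophoblast. H3K4me3 is a methyl mark typical of promoters, H3K27ac is an acetyl mark of active promoters and enhancers, and Hdac1 is an enzyme that takes such acetyl groups off histones. The late 2-cell stage is the time of major activation of the mouse zygotic genome, before these lineages part.

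The promoters of the genes whose H3K27ac differed between water and mutant lists at a start site (Cdx2, Gata3 and Elf5), and of the coactivator genes Yap1 and Wwtr1, which were marked in all 4 lists, are shown as the 250 bases before the start site, 5′ to 3′ on the strand of the gene. The sequences are those of RefSeq for GRCm38.p6, and the promoter table had entries for 8 of the 10 genes, the other two being Tead4 and Tfap2c. Capitals mark CATTCC or its reverse complement GGAATG, the letters bound by TEAD factors. The Cdx2 sequence is chr5:147307250-147307499 on the minus strand, that of Gata3 is chr2:9878601-9878850 on the minus strand, and those of Elf5 are chr2:103411848-103412097 and chr2:103423818-103424067 on the plus strand. The Yap1 sequence is chr9:8004597-8004846 and that of Wwtr1 is chr3:57575911-57576160, both on the minus strand.
Cdx2: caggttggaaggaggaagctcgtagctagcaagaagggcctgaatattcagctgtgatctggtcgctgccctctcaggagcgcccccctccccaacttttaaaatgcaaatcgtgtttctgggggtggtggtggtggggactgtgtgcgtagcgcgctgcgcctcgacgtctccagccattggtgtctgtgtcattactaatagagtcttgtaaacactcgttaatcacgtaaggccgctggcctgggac
Gata3: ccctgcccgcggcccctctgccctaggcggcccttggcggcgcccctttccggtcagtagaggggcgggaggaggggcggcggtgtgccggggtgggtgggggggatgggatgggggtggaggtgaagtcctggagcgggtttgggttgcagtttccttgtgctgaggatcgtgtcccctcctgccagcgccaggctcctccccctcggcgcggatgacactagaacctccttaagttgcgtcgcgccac
Elf5 first start site: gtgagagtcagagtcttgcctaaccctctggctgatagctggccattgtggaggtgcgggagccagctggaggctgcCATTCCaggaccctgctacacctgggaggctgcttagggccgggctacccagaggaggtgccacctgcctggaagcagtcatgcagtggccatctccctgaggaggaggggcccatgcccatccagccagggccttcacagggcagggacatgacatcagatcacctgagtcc
Elf5 second start site: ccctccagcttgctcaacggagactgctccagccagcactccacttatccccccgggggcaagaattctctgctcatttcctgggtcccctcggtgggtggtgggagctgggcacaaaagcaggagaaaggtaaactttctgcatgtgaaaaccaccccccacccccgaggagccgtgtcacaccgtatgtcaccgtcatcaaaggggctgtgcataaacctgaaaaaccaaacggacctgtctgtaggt
Yap1: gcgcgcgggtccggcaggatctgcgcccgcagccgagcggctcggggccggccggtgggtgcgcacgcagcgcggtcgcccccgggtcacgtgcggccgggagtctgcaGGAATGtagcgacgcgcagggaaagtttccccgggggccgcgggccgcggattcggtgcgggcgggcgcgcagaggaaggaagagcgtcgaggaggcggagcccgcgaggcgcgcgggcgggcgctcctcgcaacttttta
Wwtr1: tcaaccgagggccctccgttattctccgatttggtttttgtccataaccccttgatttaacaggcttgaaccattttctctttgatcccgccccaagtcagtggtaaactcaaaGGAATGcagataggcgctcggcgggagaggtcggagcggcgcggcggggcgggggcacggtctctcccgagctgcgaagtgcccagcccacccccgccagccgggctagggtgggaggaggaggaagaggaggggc

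All 250 bases of the Cdx2 and Gata3 promoters lay under an H3K27ac peak in the mutant list and 0 bases in the water list. The second Elf5 promoter was the reverse, with 250 bases in water and 0 in mutant. The Yap1 and Wwtr1 promoters were covered over all 250 bases by both marks in both conditions. The TEAD letters were found, on either strand, in 4 of the 11 promoters listed for the 8 genes: the first of Elf5, that of Yap1 and both of Wwtr1, which overlap and hold the same copy. Over all genes 11.7% of 21263 promoters of the same length hold these letters. The AP-2 letters GCCNNNGGC, a palindrome bound by factors of the Tfap2 family, were also found in 4 of the 11 promoters, with 3 matches in Gata3 and 1 each in Cdx2, Yap1 and Lats2, against 16.3% of all promoters. A match describes the letters and does not show that a factor binds there.

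The lists held 77349 (water) and 122487 (mutant) H3K27ac peaks over 252 and 246 Mb, and 86798 and 85780 H3K4me3 peaks over 257 and 279 Mb. The lists differed in their smallest peak width, between 149 and 182 bp, and in their smallest gap, between 602 and 734 bp, so that number and width of peaks are less comparable than covered bases. The peaks carry no height, the sequencing depth is unknown, and 1 list per group leaves no replicate error. No test was therefore possible, no p-value is given, and every difference below is one between lists, set beside the same measure over all protein-coding genes. Whether fewer blastomeres carried a mark or each carried less of it cannot be told apart in pooled embryos, and peak positions give no check of the embryos' identity by marker expression.

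At the gene ends (windows reaching 2 kb to either side of the first and of the last base of the gene record, 8000 bp in all), H3K27ac was listed at 8 of the 10 genes in each condition and at neither end of Eomes and Elf5. A peak was listed for 54.8% of all protein-coding genes in the water list and 58.0% in the mutant list. With windows of 1 kb, H3K27ac was listed at 5 of the 10 genes in water and at 8 in mutant. H3K4me3 was listed at 9 genes in water and all 10 in mutant, against 74.7% and 72.9% of all genes. The exception, Elf5, had no H3K4me3 peak at a gene end in water and a 134 bp edge of a 587 bp peak near its 3′ end in mutant.

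A covered length was called different when it differed at least 2-fold between the lists or was 0 in 1 of them. By that rule H3K27ac at the gene ends was more extended in mutant embryos at 3 of the 8 marked genes, Cdx2, Tead4 and Gata3, and less extended at 0. Among all genes with a peak in either list 31.2% were called higher and 32.2% lower, so 3 of 8 is near the background and 0 of 8 is below it. Neither was tested. With 5 kb windows the genes called higher were again 3, with Elf5 (log2 ratio 2.39) in place of Gata3 (0.06). Any reduction, however small, was seen at 2 of the 8 (Yap1 and Lats1), against 52.6% of all genes, and no gene had a peak in the water list only (background 17.7%) or in the mutant list only (22.2%). The bases summed over the 10 genes were 25370 in water and 33546 in mutant, a ratio of 1.32, where the ratio over all protein-coding genes was 0.860. Without Cdx2 and Tead4, the 2 genes with the largest increases, left out after their values were seen, the ratio was 0.988.

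For H3K4me3 at the gene ends 0 of the 10 genes were called lower (background 13.3%) and 1 higher (background 13.2%), the small Elf5 edge. That edge also made Elf5 the 1 gene listed in mutant only (background 6.09%), with 0 in water only (8.40%). Fewer covered bases in mutant were seen at Tead4, Tfap2c, Yap1 and Lats1, 4 of 10, against 41.0% of all genes. The summed ratio was 0.934 for these genes and 1.03 for all. H3K4me3 at these gene ends was therefore within 2-fold between the lists except at Elf5.

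**Figure D1:**
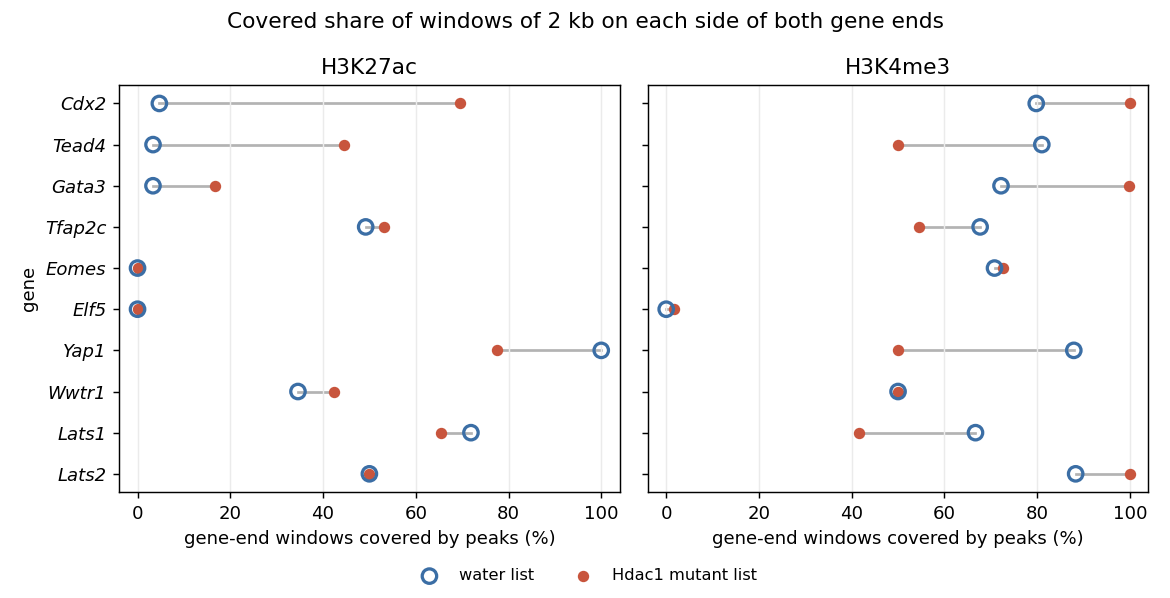
Percentage of the gene-end windows (8000 bp per gene) under peaks of the water list (open circles) and of the mutant list (filled circles), for H3K27ac on the left and H3K4me3 on the right, 1 row per gene. Cdx2 (4.71 and 69.5%) and Tead4 (3.34 and 44.6%) show the widest H3K27ac steps, and for H3K4me3 Yap1 goes from 87.9 to 50% and Gata3 from 72.2 to 99.7%.

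Start sites describe promoters more closely than gene ends and were listed for 8 of the 10 genes. Within 2 kb of a start site H3K27ac was listed at 4 of the 8 genes in water (Elf5, Yap1, Wwtr1 and Lats1) and at 5 in mutant (Cdx2, Gata3, Yap1, Wwtr1 and Lats1), against 46.7% and 46.3% of the 17492 protein-coding genes with a listed start site. Of the 6 genes marked in either list, Cdx2 and Gata3 were marked in the mutant list only and Elf5 in the water list only. Among all such genes 24.4% were marked in the mutant list only and 25.1% in the water list only, so a change of list at a start site was common throughout the genome. With start-site windows of 5 kb, H3K27ac was listed at 5 of the 8 genes in water and at 8 in mutant. H3K4me3 was listed at the start sites of all 8 genes in both conditions, against 72.1% and 68.6% of all genes, and 0 of the 8 were marked in 1 condition only (background 10.4% for water only and 5.70% for mutant only).

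Cdx2 (chr5:147300900-147307249, minus strand), the caudal-type homeobox factor that specifies trophectoderm, had H3K27ac over 377 bp of its gene-end windows in the water list and over 5556 bp in the mutant list, a ratio of 14.7. The water value came from 1 peak of 611 bp past the 3′ end, 7973 bp from the start site. The mutant list had a 3364 bp peak over the start site, chr5:147304420-147307783, which covered 2535 bp of the start-site window. A 13225 bp mutant peak began 5328 bp downstream of the start site. That peak spanned the 611 bp water peak and also a 5890 bp water peak lying outside the gene-end windows. With 5 kb windows the log2 ratio at the gene ends was 1.79 instead of 3.57. In rank, 49.5% of protein-coding genes had less H3K27ac at their ends than Cdx2 in water and 91.3% in mutant. Its H3K4me3 covered the start site in both lists, as a 9565 bp peak in water and a 23204 bp peak in mutant (chr5:147290853-147314056). The gene-end bases under H3K4me3 were 6387 in water and 8000 in mutant, which is within the 2-fold rule. Thus in mutant embryos 69.5% of the H3K4me3 at the Cdx2 gene ends also lay under H3K27ac, against 5.90% in water.

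Gata3 (chr2:9857078-9887953, minus strand), a zinc finger factor acting beside Cdx2 downstream of Tead4, showed the same order at its start site. H3K27ac within 2 kb of the start site covered 0 bp in water and 2725 bp in mutant, where a 6244 bp peak lay across it (chr2:9877876-9884119). The nearest water peak was 17673 bp away. Counted from this start site along the gene, the gene record runs from -9353 to 21522 bp, so the gene-end windows do not hold the start site. They held 266 bp in water and 1336 bp in mutant, a ratio of 5.02, from peaks near the 3′ end that shared 0 bp. The log2 ratio of 1.97 at the gene ends was 0.06 with 5 kb windows, so Gata3 was then no longer called higher. Within 50 kb of the gene the order was the opposite, 18245 bp in water and 14411 bp in mutant, and the flanks outside the gene record held 16465 bp in water and 6784 bp in mutant. The log2 ratio of -0.34 within 50 kb was 0.27 with a flank of 20 kb and 0.17 with 100 kb. H3K4me3 covered the start site in both lists, as a 12200 bp peak in water and as a 17364 bp peak in mutant.

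Eomes (chr9:118478186-118486132, plus strand), a T-box factor needed for trophoblast development, had no H3K27ac at its gene ends or start site in either list. The nearest peak lay upstream at almost the same place in both, 2354 bp wide and 4877 bp away in water, and 2375 bp wide and 4824 bp away in mutant. Its H3K4me3 filled the whole start-site window in both lists, with peaks of 6087 and 7526 bp. Eomes thus had a promoter under H3K4me3 alone in both conditions, while more distant H3K27ac differed. Within 50 kb the water list had 3 H3K27ac peaks over 2928 bp and the mutant list 8 peaks over 17709 bp, a ratio of 6.05, in an interval that also holds the gene Golga4. The additional mutant peaks lay on both sides, the widest being 4454 bp (chr9:118504131-118508584, 25942 bp downstream of the start site) and 3973 bp (chr9:118459197-118463169, upstream).

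Elf5 (chr2:103412098-103450989, plus strand), an ETS factor that maintains trophoblast stem cells, has 2 listed start sites, and marks were found at the second only. A 2313 bp H3K27ac peak, chr2:103422027-103424339, reached across the second site in water, and the nearest mutant peak was 488 bp wide and 4014 bp away. H3K4me3 lay over the same site in both lists, in a 4215 bp peak in water and a 2347 bp peak in mutant. At the first start site the nearest H3K4me3 peaks were 7463 bp away in water and 3490 bp in mutant. The order at this Elf5 promoter was thus opposite to that at Cdx2 and Gata3. In contrast, within 50 kb the mutant list held more H3K27ac, 9763 bp against 2885 bp in water (ratio 3.38). Those mutant bases shared 0 bp with the water peaks, and 8853 of them lay downstream of the gene, on the side of the neighbouring gene Cat. With a flank of 20 kb in place of 50 kb the log2 ratio turned from 1.72 to -0.50.

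**Figure D2:**
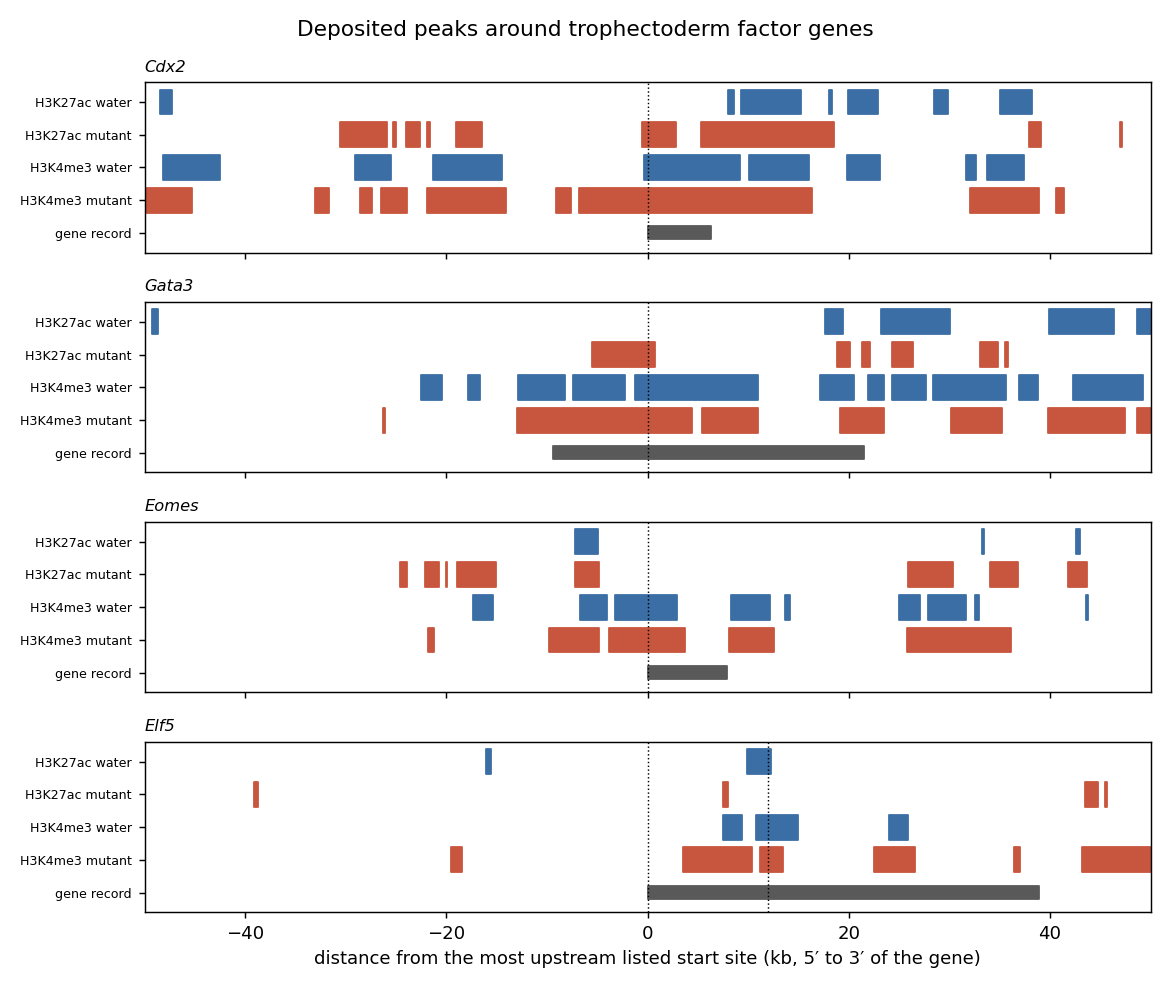
Peaks of the 4 lists around Cdx2, Gata3, Eomes and Elf5, by distance in kb from the most upstream listed start site along the gene; boxes are peaks (blue water, red mutant), grey bars the gene records and dotted lines the start sites. At Cdx2 and Gata3 the mutant H3K27ac row has a box over the start site where the water row has none, and at Elf5 the water row has a box over the second site where the mutant row has none. Peaks beyond 50 kb from the most upstream start site are not drawn, among them mutant H3K27ac peaks downstream of Elf5.

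Tead4 (chr6:128227143-128300813), the TEAD factor at the head of the trophectoderm programme, had H3K27ac over 267 bp of its gene-end windows in water and 3571 bp in mutant, a ratio of 13.4. The water peak was 267 bp wide and lay outside the gene record, beyond the end with the higher position. The mutant peak was 6700 bp wide, chr6:128299243-128305942, and reached across that end. A 16807 bp water peak, chr6:128303701-128320507, began just outside the window on the same side. With 5 kb windows the log2 ratio at the gene ends was 1.39 instead of 3.32. Inside the gene record H3K27ac covered 5.91% in water and 37.2% in mutant, while the flanks of 50 kb were alike at 42.9% and 43.2%. The flanks together thus held about as much in both lists, and the gene record held more in mutant. H3K4me3 behaved otherwise: the gene-end bases were 6478 in water and 4000 in mutant (ratio 0.617), with the end of lower position marked in water only by a 5224 bp peak. A 25630 bp H3K4me3 peak in water, the widest found at any of the 10 genes, and a 17175 bp peak in mutant lay over the end of higher position.

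Tfap2c (chr2:172545678-172558622), the AP-2 gamma factor of trophoblast and germ line, was marked in all 4 lists. H3K27ac at its gene ends covered 3938 bp in water and 4251 bp in mutant, but only 913 bp were common to both. An 11675 bp water peak lay over the end of higher position, whereas the mutant list had a 4471 bp peak over the end of lower position and a 7946 bp peak inside the gene. The total was nearly equal, and the place differed. H3K4me3 covered 100% of the gene record in water and 83.9% in mutant, with widest peaks of 14362 and 11392 bp. Within 50 kb H3K4me3 covered 29064 bp in water and 52121 bp in mutant, the highest ratio of that mark among the 10 genes, 1.79.

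**Figure D3:**
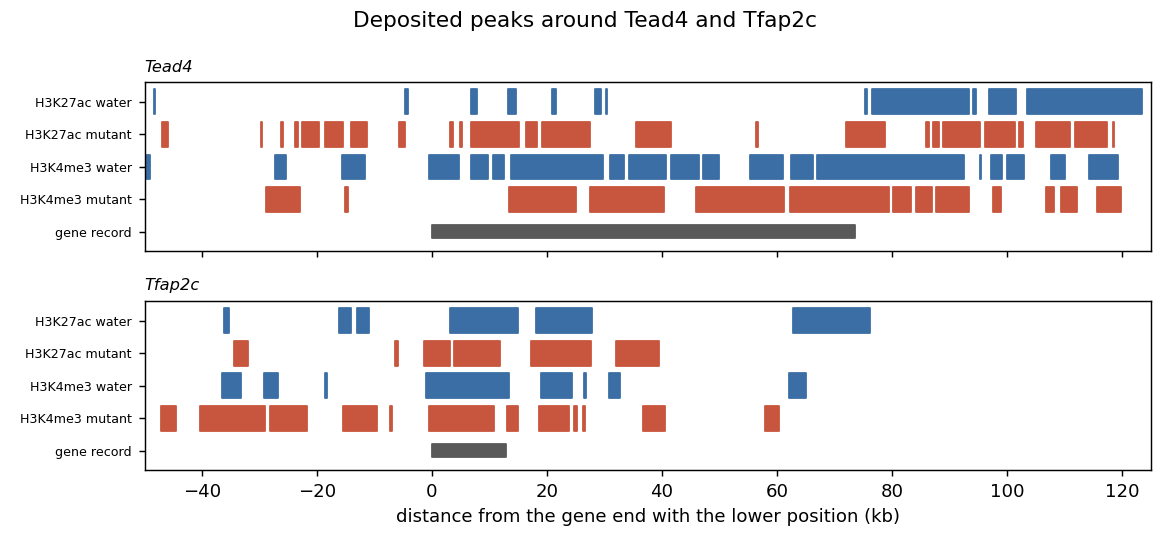
Peaks of the 4 lists around Tead4 and Tfap2c, by distance in kb from the gene end with the lower position, since no start site was listed; boxes and bars as in the map of the other lineage genes. At Tead4 the mutant H3K27ac row fills much of the gene record that is nearly empty in the water row (37.2 against 5.91% covered).

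Yap1 (chr9:7931999-8004638, minus strand), the coactivator held back by Lats kinases, was the most heavily acetylated of the 10 genes at its ends in the water list. H3K27ac covered all 8000 bp there in water and 6197 bp in mutant, a ratio of 0.775. Over the start site lay a 23783 bp peak in water (chr9:7998067-8021849) and an 8793 bp peak in mutant (chr9:8002521-8011313), both filling the start-site window. The peak was narrower in mutant, and the promoter stayed inside it. Inside the gene H3K27ac covered 55.7% in water and 32.5% in mutant, and H3K4me3 32.5% and 11.5%. H3K4me3 at the gene ends covered 7034 bp in water and 4000 bp in mutant (ratio 0.569), as the 3′ end carried it in water only.

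Wwtr1 (chr3:57455644-57575910, minus strand), the paralogue of Yap1, had both marks over its start sites in all 4 lists. H3K27ac at its gene ends covered 2767 bp in water and 3393 bp in mutant (ratio 1.23), of which 2562 bp were common. The log2 ratio of 0.28 turned to -0.23 after merging across gaps under 1 kb and to -0.49 with 5 kb windows. H3K4me3 covered 4000 bp in both lists, in a 23012 bp peak in water and a 16032 bp peak in mutant. The start-site H3K27ac peak was 2562 bp wide in water (chr3:57574863-57577424) and 10328 bp in mutant (chr3:57574518-57584845), although a second water peak of 11574 bp lay just beside it. The 3′ end had no peak of either mark in any list. Both coactivator genes thus had H3K27ac and H3K4me3 together at the promoter in water and in mutant embryos.

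Lats1 (chr10:7681200-7716461, plus strand), a kinase that phosphorylates Yap1 and Wwtr1, was marked at its start site in all 4 lists. The H3K27ac peak there was 3093 bp wide in water (chr10:7679512-7682604) and 9077 bp in mutant (chr10:7676701-7685777), and the H3K4me3 peak 4936 bp in water and 3323 bp in mutant. The promoter peak was thus wider for H3K27ac and narrower for H3K4me3 in mutant. Around the gene both marks covered less in mutant: within 50 kb H3K27ac went from 62078 to 46713 bp (ratio 0.752) and H3K4me3 from 50943 to 32504 bp (0.638). These were the lowest ratios of the 10 genes for each mark, and both were within the 2-fold rule. Pcmt1, Nup43 and Katna1 lie in the same interval, so these bases are not those of Lats1 alone.

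Lats2 (chr14:57689662-57746212, minus strand), the paralogous kinase, had no H3K27ac within 2 kb of its 2 listed start sites in either list. The nearest H3K27ac peak to the upstream site was 259 bp wide and 15651 bp away in water, and 1134 bp wide and 4514 bp away in mutant. Its gene-end H3K27ac, 4000 bp in each list, lay at the 3′ end, where the peak was 7804 bp wide in water and 4333 bp in mutant. H3K4me3 lay over the upstream start site with 5822 bp in water and 5449 bp in mutant, and over the 3′ end, where the mutant peak was 24729 bp wide (chr14:57681463-57706191). The 2 kinase genes therefore differed: Lats1 had both marks at its promoter and Lats2 H3K4me3 alone, in each condition.

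**Figure D4:**
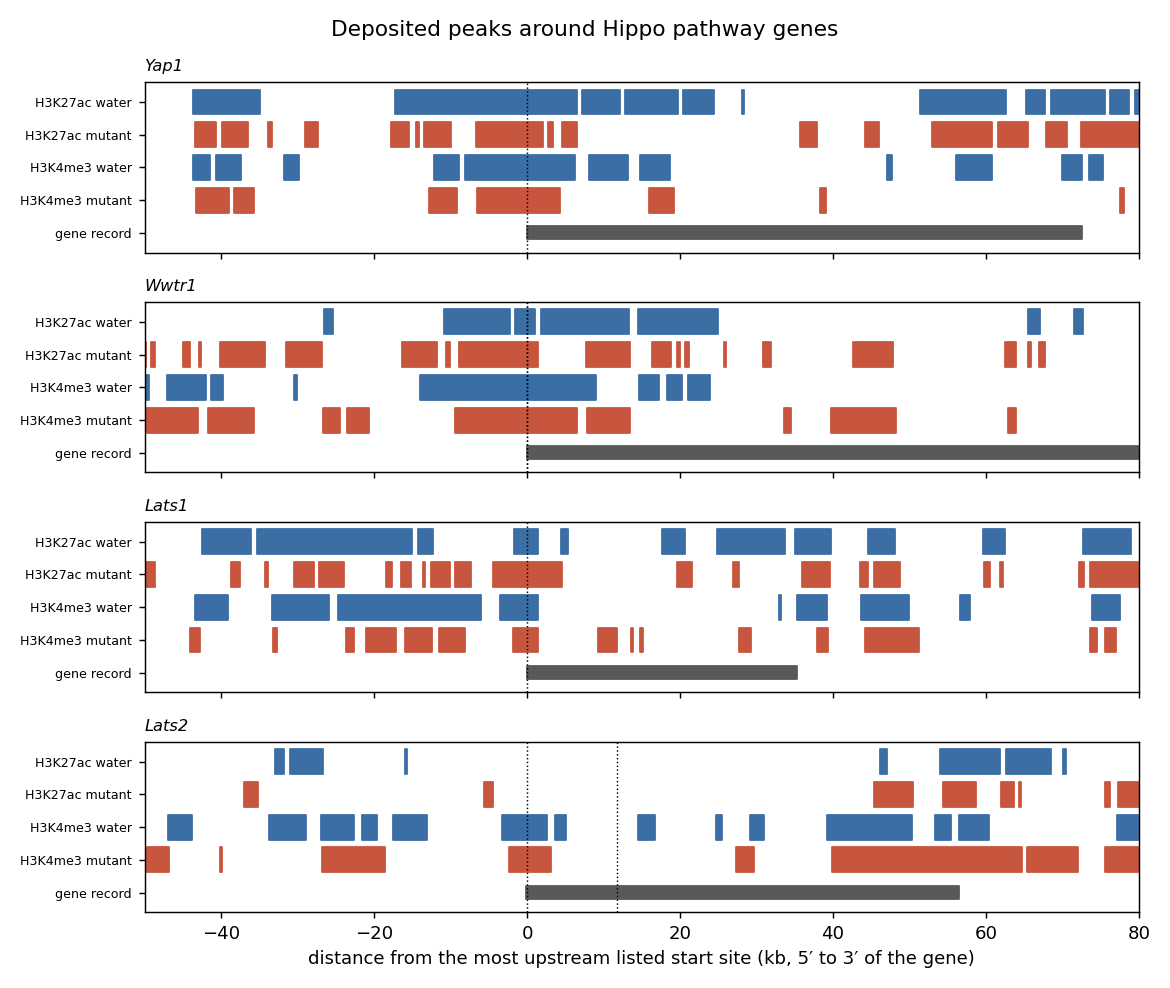
Peaks of the 4 lists around Yap1, Wwtr1, Lats1 and Lats2, by distance in kb from the most upstream listed start site along the gene; boxes are peaks (blue water, red mutant), grey bars the gene records and dotted lines the start sites. All 4 rows have a box over the Yap1, Wwtr1 and Lats1 start sites, while at Lats2 the rows of H3K27ac are empty there and the nearest box is 15651 bp (water) or 4514 bp (mutant) away. Peaks beyond the limits of the axis are not drawn.

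Within 50 kb of the gene records all 10 genes had a peak of each mark in each condition. These intervals hold other protein-coding genes at every gene but Tfap2c, such as Pdx1, Urad and Flt3 at Cdx2, Tulp3 at Tead4, Taf3 at Gata3 and Golga4 at Eomes, so their bases are not those of the named gene alone. A peak within 50 kb was listed for 92.8% (H3K27ac, water), 93.1% (H3K27ac, mutant), 92.2% (H3K4me3, water) and 91.6% (H3K4me3, mutant) of all protein-coding genes. H3K27ac was called higher in mutant at Eomes and Elf5, 2 of 10 against 21.3% of all genes, and lower at 0, against 14.0%. Fewer H3K27ac bases in mutant were seen at Gata3, Yap1, Lats1 and Lats2, 4 of 10 against 55.0%. For H3K4me3 0 genes were called lower (background 8.49%) and 0 higher (11.9%), and Tead4, Gata3, Yap1 and Lats1 had fewer bases, 4 of 10 against 43.5%. The counts around the genes were near the background. The summed H3K27ac ratio over the 10 genes was 1.11 (337918 bp in water, 375785 bp in mutant), against 0.872 for all genes, and that of H3K4me3 was 1.06 against 1.04.

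The H3K27ac ratios within 50 kb of the transcription factor genes were 1.73 at Cdx2, 1.49 at Tead4, 1.25 at Tfap2c, 6.05 at Eomes and 3.38 at Elf5, with 0.790 at Gata3. Those of the Hippo genes were 0.840 at Yap1, 0.752 at Lats1 and 0.928 at Lats2, with 1.22 at Wwtr1. With a flank of 20 kb the log2 ratio turned to 0.27 at Gata3, -0.07 at Tfap2c, -0.50 at Elf5 and -0.14 at Wwtr1, so that the order was the same with both flanks at Cdx2, Tead4, Eomes, Yap1, Lats1 and Lats2.

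Around most of the 10 genes the mutant list held more H3K27ac peaks, and its widest peak was mostly narrower. Within 50 kb the number of H3K27ac peaks was higher in mutant at 9 of the 10 genes, against 70.8% of all genes, and equal at Tfap2c with 6. It went from 12 to 24 at Tead4, from 8 to 22 at Wwtr1, from 11 to 21 at Lats1 and from 14 to 20 at Yap1. At 7 genes the mutant list also had the lesser maximum width of H3K27ac, against 65.5% of all genes. The maximum was 23986 and 12784 bp at Yap1, 20321 and 9077 bp at Lats1, and 20008 and 8385 bp at Tead4. The 3 exceptions were Cdx2 (10555 and 13225 bp), Eomes (2354 and 4454 bp) and Elf5 (2313 and 4677 bp). The same direction held for most genes, so these shares follow the lists as a whole. For H3K4me3 more peaks were listed in mutant at 4 of the 10 genes (background 36.2%) and a narrower widest peak at 6 (background 40.1%). After merging across gaps under 1 kb, more H3K4me3 peaks were listed in mutant at 6 genes and a narrower widest peak at 3. The widest H3K4me3 peak differed most at Lats1, with 18702 bp in water and 7164 bp in mutant, and at Cdx2 and Lats2, with 9565 and 23204 bp and with 11142 and 24729 bp.

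**Figure D5:**
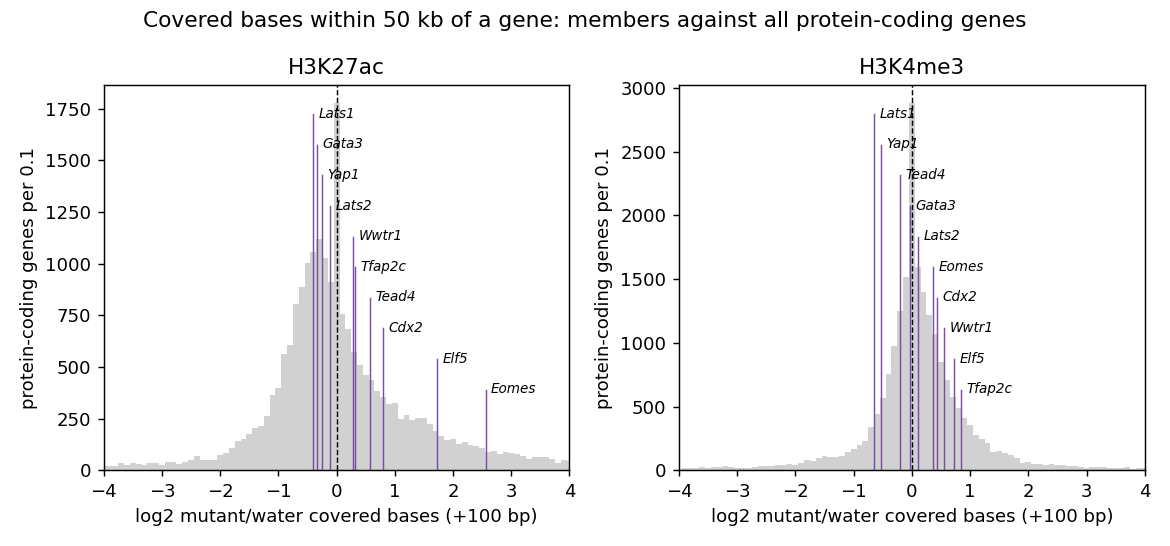
Distribution of the log2 ratio of covered bases, mutant to water with 100 bp added to each, within 50 kb of all protein-coding genes (grey bars, genes per 0.1) and the 10 genes as labelled lines whose heights only separate the names (genes with no peak in either list stand at 0, genes beyond the axis are not drawn), with H3K27ac on the left and H3K4me3 on the right. Eomes at 2.56 and Elf5 at 1.72 stand to the right for H3K27ac inside the range of all genes (95% of genes below 3.04), and Lats1 stands leftmost in both panels at -0.41 and -0.65.

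The lists shared the position of peaks to different degrees. At the gene ends the median share of water H3K27ac bases that the mutant list also covered was 85% over the 8 marked genes, from 0% at Gata3 to 100% at Cdx2, Tead4 and Lats2, and 37.1% over all protein-coding genes with a water peak. For H3K4me3 the median was 99.9% over 9 genes and 89.9% over all. Within 50 kb the medians were 51.0% for H3K27ac (all genes 36.7%) and 67.1% for H3K4me3 (61.0%). In the medians less was shared around these genes than at their ends. Tfap2c was the reverse for both marks, with 66.3% of H3K27ac shared within 50 kb and 23.2% at the ends, as were Gata3 for H3K27ac (14.7 and 0%) and Tead4 for H3K4me3 (68.7 and 61.7%).

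At the gene ends a median of 43.4% of H3K4me3 bases also lay under H3K27ac in water (9 genes) and 63.6% in mutant (10 genes), whereas over all protein-coding genes the medians were 37.2% and 21.6%. The largest single steps were Tead4, from 4.12 to 89.3%, and Cdx2, from 5.90 to 69.5%. Yap1 stood at 100% in both lists although its bases under both marks were 7034 in water and 4000 in mutant, and those of Lats1 were 5015 and 3323. Eomes stood at 0% in both lists.

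Base composition of the promoters, which the choice of genes did not use, went with the marks only in part. The promoters of Yap1, Lats1 and the upstream Lats2 site had the most GC and CpG, with 76.4% GC and 44 CpG, 74.8% and 37, and 74.0% and 31 in 250 bases, where the median promoter had 55.6% GC and 10 CpG. Yap1 and Lats1 were under both marks in all lists and Lats2 under H3K4me3 alone. Cdx2 (55.2% GC, 13 CpG) and the second Elf5 promoter (56.8% GC, 8 CpG) were near the median, and Gata3 lay above it (70% GC, 19 CpG). The promoters of lower GC, Eomes (46.4%) and the inner Lats2 site (44.8%), had no H3K27ac in either list, and neither had the first Elf5 promoter with 62.8% GC.

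Another 40 genes of the same pathways were counted from a fixed list, 14 Hippo kinases, adaptors and inhibitors, 7 TEAD factors, cofactors and targets, and 19 trophectoderm and trophoblast genes. H3K27ac was at the gene ends of 25 of the 40 in water and 20 in mutant (all protein-coding genes 54.8% and 58.0%), and H3K4me3 of 39 and 37 (74.7% and 72.9%). By group, H3K27ac was listed at 11 Hippo genes in water and 10 in mutant, at 5 and 3 of the TEAD group, and at 9 and 7 of the trophectoderm group. Of 28 genes with H3K27ac in either list, 8 had it in water only (background 17.7%) and 3 in mutant only (22.2%). The 8 were the kinase gene Stk4, Frmd6, the TEAD factor genes Tead1 and Tead3, the trophoblast factor gene Hand1, the receptor gene Fgfr2, the Notch effector gene Rbpj, and Cdh1, which encodes E-cadherin. Hand1 had 7435 bp in water, Tead1 5316 bp, and Rbpj and Cdh1 4000 bp each, all 0 in mutant. The 3 genes listed in mutant only were Amotl2 with 3815 bp, Gata2 with 1595 bp and Esx1 with 618 bp.

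By the 2-fold rule 10 of these 28 genes were lower and 8 higher in mutant (background 32.2% and 31.2%), and the summed ratio was 0.665. The ratio over all genes was 0.860. The Hippo adaptor gene Amot on the X chromosome had H3K4me3 at its gene ends in water only (4000 bp).

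Likeness to the 40 genes was measured as the distance of log2(covered bases at gene ends + 100) over the 4 lists. The gene most like Cdx2 was Tead2 (distance 0.86; H3K27ac 203 bp in water and 4000 bp in mutant), which was also the most like Tead4 (1.08). The gene most like Gata3 was Krt18 (0.88; H3K27ac 220 and 2498 bp), a keratin gene of the trophectoderm. Eomes was most like Dlx3 (0.24), with H3K4me3 and no H3K27ac in both conditions, and Wwtr1 was most like Ptpn14 (0.28). Mob1b was closest to Tfap2c (0.67) and to Lats1 (1.08), Nf2 to Lats2 (0.58) and Aqp3 to Yap1 (1.11).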

How the data were processed

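The unit of the deposited lists is other than a count or signal: the authors give peak positions alone (chromosome and both limits), with no score, per the file contents. The submitters' processing notes name CASAVA, Trimmomatic, Bowtie2, SAMtools, Picard, MACS2 and deepTools and the builds mm10 and GRCm38, without parameters, and do not say whether libraries were pooled before calling. Starts were read as 0-based and are printed 1-based. Peaks on chromosomes 1 to 19, X and Y were used, and a peak was counted from 1 bp of overlap. Gene records and promoters (250 bases before and 50 after a start site, of which the first were searched) came from RefSeq tables of GRCm38.p6. Covered bases, peak numbers and widths were computed with Python 3.11.15, numpy 2.4.6 and pandas 2.3.3, in code tested on simulated data. All 10 genes are named, and of the 40 pathway genes those with a gene-end peak in 1 condition only, or those closest to a named gene. The genes and lists were chosen with earlier results of these data known. Alternatives changed windows, flanks, joining, widths and list sizes. A result on 1 further gene is not reported here.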

Additional observations from a re-analysis of the deposited data

How the results depend on the processing

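No paired analysis was possible because values per replicate were lacking: both libraries of a group share 1 list, so no replicate could be left out either. Of 32 summary values, 17 stayed within 1.5 times the main value and, for ratios, on the same side of 1 under every alternative run. Of 276 single comparisons with an alternative 257 did so, 16 moved further and 3 reversed. Values within that limit could still move, as genes with fewer H3K27ac bases within 50 kb did from 4 to 6 with a flank of 20 kb. Start sites in place of gene ends also drop Tead4 and Tfap2c: genes with H3K27ac were 4 in water and 5 in mutant instead of 8, genes with fewer bases in mutant were 1 instead of 2 for H3K27ac and 2 instead of 4 for H3K4me3, H3K27ac was 2-fold lower at 1 gene (Elf5) instead of 0, and the summed H3K4me3 ratio was 1.06 instead of 0.934. Gene ends of the remaining 8 genes gave 6 genes with H3K27ac in each condition, 2 with fewer H3K4me3 bases and an H3K4me3 ratio of 1, so part of these shifts comes from the genes dropped. Without Cdx2 and Tead4, H3K27ac at gene ends was called higher at 1 gene instead of 3, with a summed ratio of 0.988 instead of 1.32. Gene-end windows of 1 kb left 5 genes with H3K27ac in water and 8 in mutant. Start-site windows of 5 kb gave 5 in water instead of 4 and 8 in mutant instead of 5. The Elf5 H3K4me3 edge, 1 gene called higher, was 0 with the wider 50% of peaks, with 1 kb windows and at start sites (log2 ratio -0.22). Yap1 became 1 gene with lower H3K4me3 at its ends after merging across gaps under 1 kb (log2 ratio -0.98), and Lats1 1 gene with lower H3K4me3 within 50 kb among the wider 50% of peaks (log2 ratio -1.04). The same merging left 3 instead of 6 genes with a narrower widest H3K4me3 peak in mutant. With a flank of 20 kb the summed H3K4me3 ratio was 0.998 instead of 1.06, H3K4me3 was called higher at 1 gene (Elf5, log2 ratio 1.59) instead of 0, the Elf5 H3K27ac log2 ratio was -0.50 instead of 1.72, and the log2 ratio of Tead4 was 1.09 instead of 0.58. With 5 kb windows the Gata3 gene-end H3K27ac log2 ratio was 0.06 instead of 1.97. The cause of the other shifts was not tested. The Cdx2 H3K27ac log2 ratio at the gene ends stayed between 1.79 and 5.82, the log2 ratio of Tead4 between 1.39 and 5.20. Start sites in place of gene ends were planned, while the separate start-site counts and their windows, 2-fold counts, counts of peak number and width, and the alternatives that leave out genes, were added after the lists were seen. Peaks without heights, unknown depth and unstated pooling limit every comparison to where peaks were called.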

Other observations

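Around the 40 further pathway genes, H3K27ac within 50 kb was called higher in mutant at 12 and lower at 6 of the 40 (all protein-coding genes 21.3% and 14.0%). The Hippo adaptor gene Amotl2 had 301 bp in water and 29086 bp in mutant, and the trophoblast factor gene Gata2 877 and 9849 bp. In the other direction Hand1 went from 68272 to 19046 bp and Rbpj from 88006 to 37195 bp. The summed ratio over the 40 genes was 0.935, against 0.872 for all genes. For H3K4me3 4 were called higher and 3 lower (all genes 11.9% and 8.49%). Amot had 20937 bp in water and 5748 bp in mutant. The counts were near those of all genes, and single genes differed widely in each direction. The genes named here were picked from that list after their values were seen.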
